A study of Mus musculus with 6 samples.

Results

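Olfactory receptor transcripts were examined in 6 RNA libraries of sorted mouse microglia. The deposited gene table holds 1251 rows whose symbol begins with Olfr, and 1249 of them have a value in every library. A row was taken as a member when it had a value in all 6 libraries and stood at 1 FPKM or more in at least 2 of them. That rule kept 1003 receptors, 80.3% of the rows with values, out of 37447 genes in the table. FPKM counts the sequenced fragments of a gene for the length of its transcript and the fragments mapped in the library, so it is a level relative to the rest of a library. The members were thus chosen by their FPKM in the libraries compared here. Because the rule used these levels, the number of members and their levels are a description of the table and no test was made of them.

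The microglia were sorted by flow cytometry from the optic nerves of C57BL/6 mice aged 3 months, and their RNA was amplified before sequencing. The 2 libraries called FM came from mice of genotype Nf1 flox/mut, with 1 floxed and 1 mutant copy of the neurofibromatosis type 1 gene (FM 1 labelled male, FM 2 labelled female). The 4 libraries called FMC came from mice of genotype Nf1 flox/mut; GFAP-Cre (females: FMC 1 and FMC 4; males: FMC 2 and FMC 3, by the labels). Both groups inherited the same Nf1 alleles, which says nothing of the floxed copy in cells where Cre was active. The Cre recombinase of the FMC mice is driven by the promoter of Gfap, which is active in astroglial cells and not in the sorted cell type. The labels call the libraries biological replicates but do not say whether nerves of several animals were pooled. The titles of FM 1 and FMC 2 carry dates 1 day apart, as do those of FM 2 and FMC 3. No label states what these dates record.

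Olfactory receptors are G protein-coupled receptors that span the cell membrane several times and form the largest gene family of the mouse genome. In the nose each olfactory sensory neuron expresses a single receptor gene, and odorant binding acts through the G protein subunit encoded by Gnal, the adenylyl cyclase encoded by Adcy3 and a cyclic nucleotide-gated channel. Most receptors are encoded in 1 exon and lie in large genomic clusters of similar genes, and transcripts of some have been described in tissues outside the nose.

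The family is held together by short conserved stretches of coding sequence. The segment below lies at the inner end of the third membrane helix, around the acidic and basic pair that contacts the G protein. It is shown 5′ to 3′ for 8 of the receptors on which the results turn. It was located by its conserved amino acid pattern, found in 996 of 1131 coding sequences, so its likeness was fixed in advance. The likeness of whole transcripts is not shown by it. Olfr1020, discussed below, did not match the pattern. Capitals mark the 9 bases of the Asp-Arg-Tyr triplet or its nearest form, and the sequences are from the GENCODE M21 transcripts of build GRCm38.
Olfr111: atggcatatGATCGATATattgctatctgt
Olfr110: atggcatatGATCGATATattgctatctgt
Olfr108: atggctattGACCGCTATgctgctatctgc
Olfr263: atgtcctatGATCGTTTCacagctatttgt
Olfr346: atggcatatGACAGGTATgtggccatctgc
Olfr1484: atggcctatGACCGTCATgcagcagtgtgc
Olfr874: atggcatatGACCGTTATgttgccatctgt
Olfr427: atggccatcGACAGGTATgttgccatctgt

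Olfr111 and Olfr110 share this segment base for base. Over the 954 compared coding bases they differ at 18, an identity of 98.1%. In a stretch of 60 bases near the end of the coding sequence they differ at 5 bases, given here in capitals.
Olfr111: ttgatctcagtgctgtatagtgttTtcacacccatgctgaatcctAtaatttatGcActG
Olfr110: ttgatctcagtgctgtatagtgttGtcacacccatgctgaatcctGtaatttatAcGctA
A coding sequence was found for 935 members. A match had to cover at least 90% of a receptor's own coding sequence. Among members with such a match, the median identity to the nearest other receptor was 91.0%. For 236 of the 935 (25.2%) the nearest match was at least 95% identical, and for 10 at least 99%. Of the 73 coding sequences of members present at 1 FPKM in all 6 libraries, 28 (38.4%) had a match at least 95% identical. These counts are lower bounds, since a long coding sequence could miss its shorter copy. Olfr1480 was left without a match, yet Olfr1487 matched it at 96.7% identity. The sources used here do not give how the counting shared fragments between such copies, so the level of a receptor with a close copy is uncertain.

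Receptor transcripts were listed in every library, at very different breadth. Counting all 1249 rows with values, whether members or not, 740 (59.2%) stood at 1 FPKM or more in FM 1 and 767 (61.4%) in FM 2. In the FMC libraries the number was 433 (34.7%) in FMC 1, 809 (64.8%) in FMC 2, 418 (33.5%) in FMC 3 and 670 (53.6%) in FMC 4. The groups overlapped, since FMC 2 had the most receptor rows and FMC 1 and FMC 3 the fewest of the 6 libraries. Of the libraries with titles 1 day apart, FMC 2 had more receptor rows at 1 FPKM than FM 1, and FMC 3 had fewer than FM 2. The median FPKM over all receptor rows was 1.82 in FM 1, 2.17 in FM 2, 0.181 in FMC 1, 2.23 in FMC 2, 0.298 in FMC 3 and 1.22 in FMC 4. Receptor rows made up between 0.613% (FMC 3) and 2.20% (FMC 2) of the summed FPKM of a library.

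**Figure D1:**
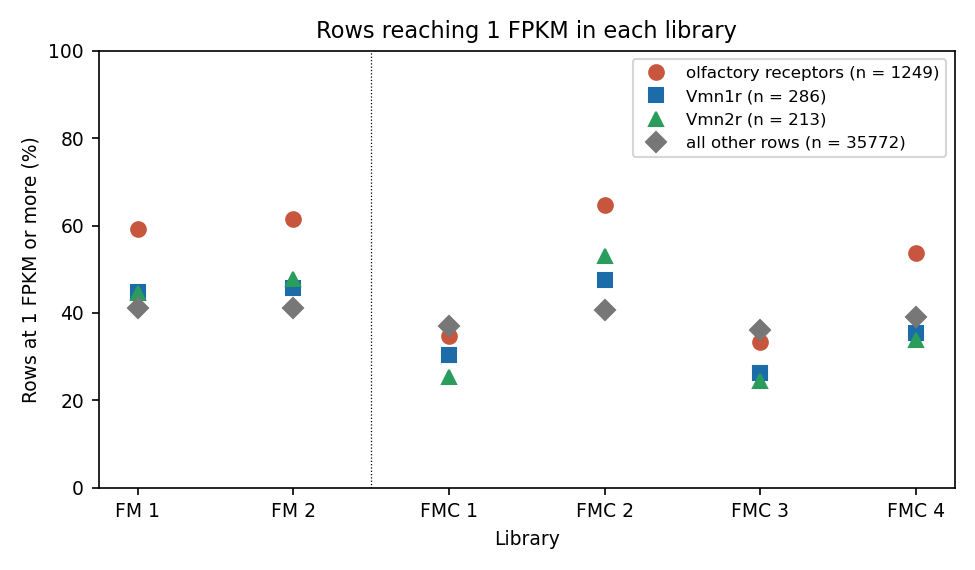
Share of rows at 1 FPKM or more (percent, vertical axis) in each of the 6 libraries, FM left and FMC right of the dotted line, for olfactory receptors, the vomeronasal families Vmn1r and Vmn2r, and all other rows of the table. FMC 1 and FMC 3 are the lowest libraries for each set, and the olfactory receptors move over a wider range (33.5% to 64.8%) than all other rows (36.1% to 41.2%).

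The same libraries were the lowest for both families of vomeronasal receptors. Vmn1r rows, which encode pheromone receptors of the vomeronasal organ, stood at 1 FPKM or more for 30.4% in FMC 1 and 26.2% in FMC 3, against 44.8% and 45.8% in FM 1 and FM 2. Of the Vmn2r rows 25.4% and 24.4% did so in FMC 1 and FMC 3. The bitter taste receptors (Tas2r) did not share that order, since 34.3% of their 35 rows reached 1 FPKM in FMC 3 as in FM 2, against 31.4% in FMC 4. Over all other rows of the table the share ran only from 36.1% in FMC 3 to 41.2% in FM 1. The member rule itself was met by 65.4% of the Vmn1r rows, 63.8% of the Vmn2r rows, 12 of 16 trace amine-associated receptors (Taar), 22 of 35 bitter taste receptors (Tas2r) and 48.1% of all other rows.

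Presence in some libraries was common and presence in all was rare. Of the 1249 rows, 95 stayed under 1 FPKM in every library, 12 of them listed at 0 throughout, and 151 reached 1 FPKM in a single library. These 246 rows are outside the rule. Among the members, 212 reached it in 2 libraries, 269 in 3, 235 in 4, 207 in 5 and 80 in all 6. The share in all 6 libraries was 6.41% of the receptor rows, 3.85% of the Vmn1r rows and 4.23% of the Vmn2r rows, against 23.9% of all other rows. Rows annotated as pseudogenes by the suffix -ps were members less often by count (88 of 152, 57.9%) than the other receptor rows (915 of 1097, 83.4%), a difference that was not tested.

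**Figure D2:**
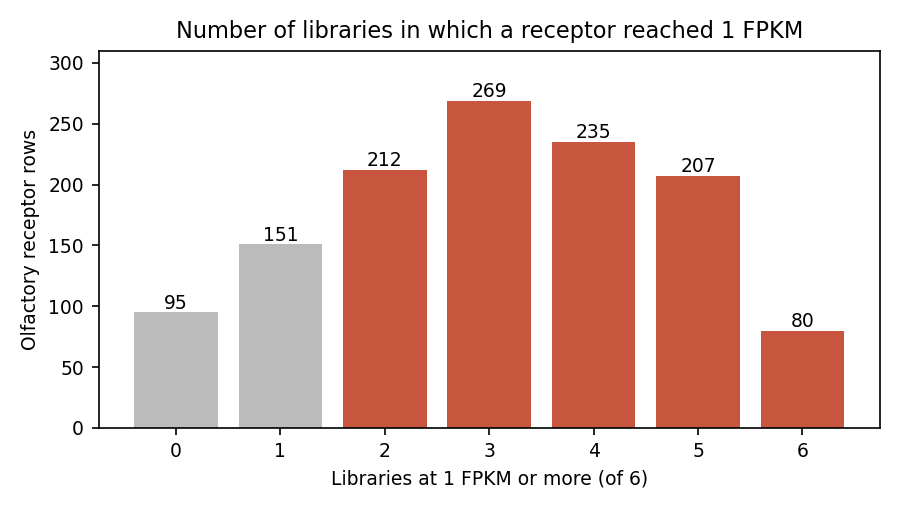
Number of olfactory receptor rows (vertical axis) by the number of libraries in which they stood at 1 FPKM or more (horizontal axis), with members in red and rows outside the rule in grey. The largest class is the 269 rows that reached 1 FPKM in 3 of the 6 libraries, and 80 rows did so in all 6.

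A high value in 1 library often stood beside 0 in another. Of the 590 members at 10 FPKM or more in at least 1 library, 275 (46.6%) were listed at 0 in another library. Among the other genes tested the same held for 1251 of 10218 (12.2%), but these were not matched to the members in level. Libraries of 1 genotype also differed in this way. Of 433 members at 10 FPKM or more in at least 1 FMC library, 343 were under 1 FPKM in another FMC library. In FM, 102 of the 404 members at 10 FPKM or more in 1 library were under 1 FPKM in the other. These counts are not comparable between the genotypes, since FMC has 4 libraries and FM has 2.

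Low FPKM values of receptors of like length fell on steps, which gives a view of the counting behind a value. For the 529 receptor rows spanning 930 to 960 bp the smallest step was 0.0719 FPKM in FMC 2, 0.0342 to 0.0595 FPKM in FM 1, FMC 1, FMC 3 and FMC 4, and 0.0220 FPKM in FM 2. Between 88.0% and 98.6% of the values up to 3.5 steps lay within 0.15 of a whole number of steps. The step was set from the lowest of these same values, so part of that share was fixed in advance. In FM 2 they were 10 of the 25 values. At this length 1 FPKM is therefore 13.9 steps in FMC 2, 16.8 in FM 1, 19.1 in FMC 1, 27.8 in FMC 3 and 29.2 in FMC 4. For FM 2 it came to 45.5 steps, but this rests on 10 values in the lowest step and may be too high by a factor of 2, so the place of FM 2 in this order is uncertain. Taken as fragments these are amplified copies and not independent molecules, so a level of 1 FPKM does not give the number of transcripts sampled. In the other libraries 12 to 33 values lay in the lowest step, so each step is an estimate.

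The order of the members by level was weakly shared between libraries. Spearman's rho over the 1003 members was between 0.095 and 0.311 for the 15 pairs of libraries, 0.239 for the FM pair and 0.095 to 0.228 within FMC. Over the 17205 other genes tested it was between 0.626 and 0.730. With a mean between 2.04 and 8.83 FPKM, rho was -0.133 to 0.032 over 501 members and -0.011 to 0.268 over 5894 other genes. That mean was taken over the same 6 libraries, and holding it in a narrow band lowers rho for any set of genes. These values therefore cannot tell how much of the gap goes with level. These are descriptions across genes that share their libraries and are no independent replicates. The library in which a member was highest was FM 2 for 258 members, FMC 2 for 228, FM 1 for 199, FMC 4 for 142, FMC 1 for 109 and FMC 3 for 67.

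Among the receptors with described roles outside the nose, Olfr111 was the highest. Olfr111 and its near copy Olfr110 have been described in microglia, and they lie on chromosome 17 from 37666902 to 37667942 (Olfr111, ENSMUSG00000090675) and from 37629413 to 37636619 (Olfr110, ENSMUSG00000090894) in the mm9 build. Values per library are given in the order FM 1, FM 2 and then FMC 1 to FMC 4. Olfr111 stood at 45.1 and 92.9 FPKM (FM) against 36.0, 67.7, 44.6 and 47.3 FPKM (FMC). Every library was high and the groups overlapped. Its lowest library, at 36.0 FPKM, was above the lowest library of every other receptor row, and its highest library exceeded its lowest by 2.58-fold, the smallest ratio among the 80 members present in all 6. The FM mean was 69.0 ± 33.8 FPKM (SD, n = 2) and the FMC mean 48.9 ± 13.4 FPKM (SD, n = 4), a difference of -0.44 ± 0.49 (SE) on the log2(FPKM + 1) scale (limma, adjusted p = 0.998). Olfr110 was lower and more uneven, at 13.5 and 11.6 FPKM (FM) against 3.26, 0.933, 12.7 and 26.1 FPKM (FMC). Both FM values fell inside the FMC range.

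The other receptors of this kind stood at low or uneven levels. Olfr2, described in macrophages of blood vessels, was at 0.200 and 10.8 FPKM (FM) against 2.60, 4.45, 0 and 1.804 FPKM (FMC). Olfr16, described in sperm and muscle, was at 13.3 and 1.20 FPKM (FM) against 1.04, 1.79, 0.124 and 2.00 FPKM (FMC). Olfr1393, described in the kidney tubule, was at 0.0604 and 28.6 FPKM (FM) against 0, 4.31, 42.5 and 4.13 FPKM (FMC). For these the FM pair alone spanned at least 10-fold.

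Olfr78, a receptor of short fatty acids and lactate known from the carotid body and kidney, ran from 0.0263 to 1.29 FPKM and met the rule through FM 1 and FMC 3 alone. Its neighbour Olfr558 ran from 0.0959 to 2.71 FPKM, and Olfr920 from 0.160 to 13.6 FPKM. Olfr544, known from liver and fat, and Olfr287 each reached 1 FPKM in 1 library, at 1.35 and 1.33 FPKM, and are outside the rule. Of the 10 receptors looked up for such roles, 8 were members, and none passed the test between genotypes.

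Just inside the rule, by the second highest value, were Olfr1264 at 1.01 FPKM, Olfr850 at 1.01 FPKM and Olfr1053 at 1.02 FPKM. Just outside were Olfr1157 at 0.999 FPKM, Olfr1444 at 0.995 FPKM and Olfr1110 at 0.983 FPKM. The boundary has no gap in level.

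The 8 members with the highest mean included a pseudogene and several receptors carried by 1 or 2 libraries. Olfr337-ps1, a pseudogene row on chromosome 2 from 36192148 to 36192600, stood at 30.7 and 67.1 FPKM (FM) against 44.6, 83.9, 24.7 and 304 FPKM (FMC). Its mean rests largely on FMC 4, while the other libraries lay between 24.7 and 83.9 FPKM. Olfr495 was at 42.8 and 74.2 FPKM (FM) against 269.8, 55.9, 8.42 and 61.4 FPKM (FMC), high in FMC 1 and low in FMC 3. Olfr801 was at 77.6 and 128.7 FPKM (FM) against 1.17, 107.8, 21.4 and 107.3 FPKM (FMC). It was near 1 FPKM in FMC 1 and above 100 FPKM in FM 2, FMC 2 and FMC 4.

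Olfr263 lies on chromosome 13 between 21224567 and 21225653. It was at 61.3 and 101.3 FPKM (FM) against 18.4, 117.5, 15.0 and 14.3 FPKM (FMC). FMC 2 was the highest library and the other FMC libraries lay below both FM libraries. The neighbouring pseudogene Olfr1369-ps1 shares all but 18 of the 954 compared bases with it and was highest in other libraries, at 15.98 and 3.34 FPKM (FM) against 61.0, 6.73, 3.801 and 141.1 FPKM (FMC). Olfr427 was at 32.4 and 242.7 FPKM (FM) against 0.447, 3.18, 0 and 59.0 FPKM (FMC), and Olfr299 at 9.22 and 197.7 FPKM (FM) against 0.864, 106.6, 0.166 and 1.10 FPKM (FMC). Neither was present in all 6 libraries, and for both the FM pair differed more than 5-fold.

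**Figure D3:**
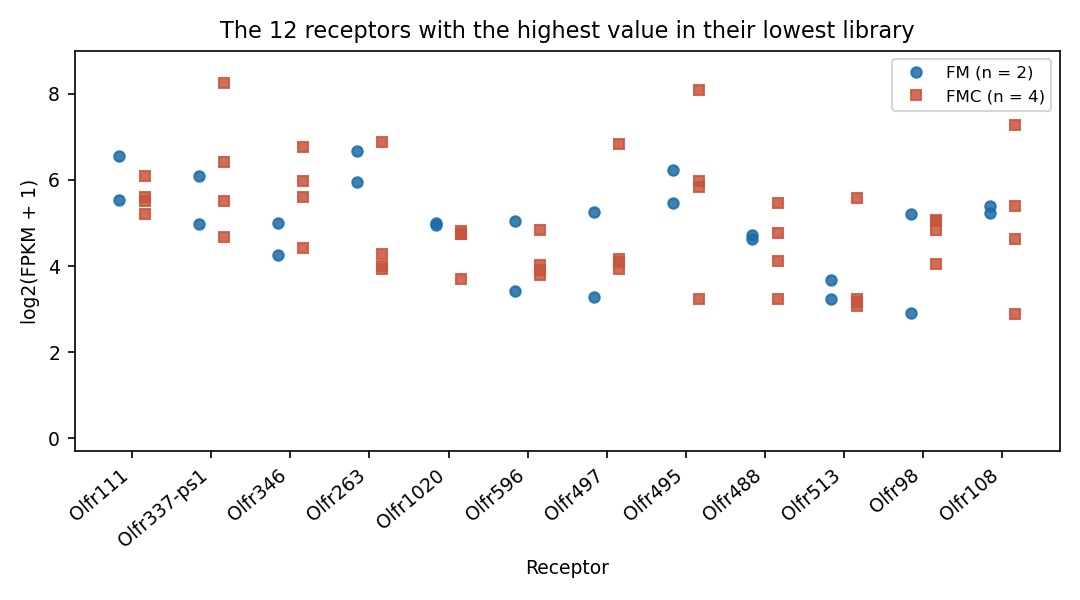
Level of the 12 receptors with the highest value in their lowest library, as log2(FPKM + 1) (vertical axis), with a point for each of the 2 FM (circles) and 4 FMC (squares) libraries. They were chosen after their values were seen. Olfr111 holds the highest floor, and within most receptors the FMC squares spread around or across the FM circles.

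The 80 members present in all 6 libraries were still uneven. The ratio of the highest to the lowest library had a median of 12.3 and reached 110. Olfr1020, between 85689577 and 85690655 on chromosome 2 and chosen after its values were seen, was the second most even member, at 31.2 and 30.04 FPKM (FM) against 25.9, 27.0, 11.98 and 25.7 FPKM (FMC). All 4 FMC libraries lay below both FM libraries, with FMC 3 the lowest. The difference of -0.48 ± 0.52 (SE, log2) did not pass (limma, adjusted p = 0.996). Its coding sequence had 66.9% identity to the nearest other receptor. The median was 92.8% among the members present in all 6 libraries that had a match.

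Olfr346, between 36543524 and 36544453 on chromosome 2, was at 18.04 and 30.9 FPKM (FM) against 47.4, 106.9, 62.3 and 20.3 FPKM (FMC). Olfr108, which lies between 37582425 and 37583462 on chromosome 17 near Olfr111, was at 40.8 and 36.5 FPKM (FM) against 154.2, 41.0, 23.7 and 6.43 FPKM (FMC). In both the groups overlapped. Olfr784 (1.96 to 104.3 FPKM) and Olfr603 (3.64 to 84.997 FPKM) had both high and low libraries in FMC. Olfr603 has a close copy, Olfr596, at 99.5% identity, which ran from 9.68 to 31.8 FPKM and was also present in all 6 libraries.

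Receptor rows lay in 52 clusters on 18 chromosomes, with rows less than 1 Mb apart joined. The 16 clusters of 20 rows or more held members at shares from 63.0% (chromosome 16 from 58760265 to 59362042) to 91.4% (chromosome 10 from 128426905 to 129648205). The cluster on chromosome 17 from 37222136 to 38473042 had 46 members among 58 rows and included Olfr98, Olfr108, Olfr110 and Olfr111. Of the 19 rows never under 5 FPKM, 5 were in that cluster and 6 in the cluster on chromosome 7 from 113821048 to 116037934, which held 60 members among 67 rows. Only 37 members overlapped another listed gene, and 31 of these overlapped a gene that is no olfactory receptor. Reads of such genes cannot be told apart if the counting ignored strand, and the sources used here do not give its strand setting.

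The windows around the annotated starts of members were poor in G and C. Over 770 RefSeq windows of member genes (GRCm38.p6, 250 bases before to 50 after the start) the median GC content was 35.0%, against 52.7% over all 32851 windows. The letters TAATTA, read on both strands and of the kind bound by homeodomain factors such as Lhx2, occurred in 18.8% of member windows and 5.29% of all windows. TAATGA occurred in 29.6% and 9.78%, and TATAAA in 39.9% and 13.6%. The Olf/Ebf form CCCNNGGG occurred in 2.73% and 13.7%, and GAGGAA, the core read by the myeloid factor PU.1, in 25.6% and 28.3%. The part of base composition in these shares was not tested, and a match describes the window and is no binding site. Annotated starts of receptor genes may be the start of the coding exon.

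Between genotypes no receptor passed the test. Limma, fitted across the 18208 genes that met the same level rule, called 0 members higher and 0 members lower in FMC (threshold, an adjusted p of 0.05), where the background over all genes was 0.00% higher and 0.0275% lower. The smallest adjusted p of a member was 0.143. At an unadjusted p under 0.05, 8 members (0.798%) were higher, against a background of 1.14%, and 111 (11.1%) lower, against a background of 4.20%. The fitted difference was positive for 314 members and negative for 689. The 27 members that met the rule through FM libraries alone had to differ in the negative direction. Another 100 met it through FMC libraries alone. The rule used the same values.

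The median difference of the members was -0.61 on the log2(FPKM + 1) scale, and that of all genes tested -0.12. With median ratio scaling these were -0.53 and -0.01, and with quantile normalization -0.43 and 0.03. With a pseudocount of 0.1 they were -1.15 and -0.20. The members' median therefore stayed below that of all genes under each scaling. Without FMC 1 and FMC 3, the libraries with the fewest receptor rows, it was -0.19, beside -0.03 for all genes, in a comparison added after the data were seen. The 323 Vmn1r and Vmn2r genes tested had a median of -0.61 as well, with 39 (12.1%) lower at an unadjusted p under 0.05. The median residual SD was 1.35 for members, 1.20 for the vomeronasal genes and 0.84 for all genes (log2). The median SE of a difference was 0.998 for members and 0.757 for all genes. For the 5894 other genes with a mean between 2.04 and 8.83 FPKM, the median residual SD was 0.97 and the median SE 0.87. In a bulk library, fewer cells with a transcript and less of it per cell cannot be told apart.

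**Figure D4:**
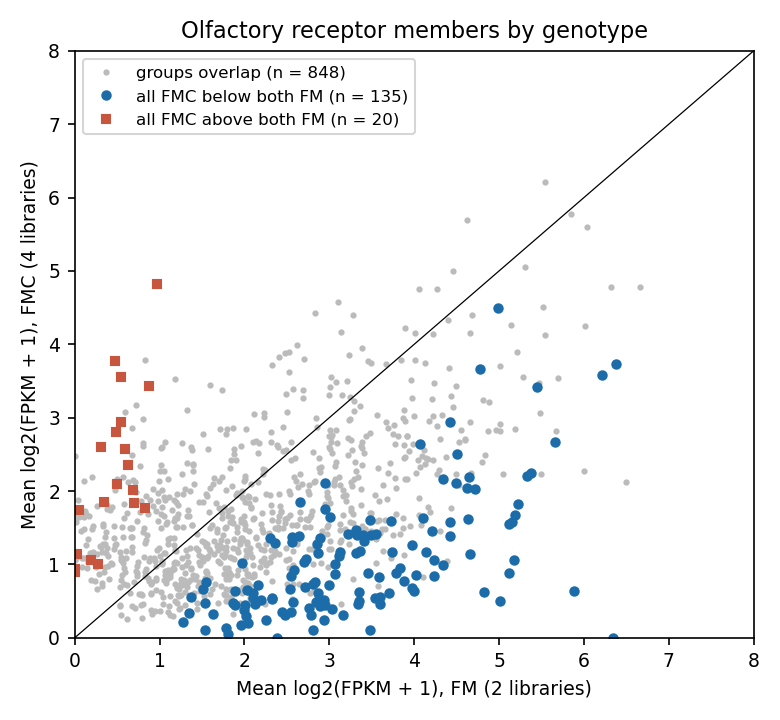
Mean log2(FPKM + 1) of each of the 1003 members in the 2 FM libraries (horizontal axis) and the 4 FMC libraries (vertical axis), with the line of equal level. Blue circles are the 135 members with all FMC libraries below both FM libraries, red squares the 20 with all above, and grey points the 848 whose groups overlap.

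In 135 members (13.5%) all 4 FMC libraries lay below both FM libraries, against a background of 8.22%, and in 20 (1.99%) all lay above, against a background of 4.34%. Among the vomeronasal genes the shares were 13.9% and 2.17%. Of the 135, 27 were under 1 FPKM in all FMC libraries and so met the rule through FM alone, and 108 reached 1 FPKM in at least 1 FMC library. Of the 80 members present in all 6 libraries, 11 lay below and 0 above. For those 80 the share over other genes present in all 6 libraries was not taken. Counts of this kind can only rise when a library is left out, for any set of genes. The share over all genes was not taken for the omissions that follow, so those counts have no background. The count below was 323 without FM 1, 269 without FM 2 and 230 without FMC 2. The count above was 66 without FM 1, 91 without FM 2, 51 without FMC 1, 33 without FMC 2 and 42 without FMC 3. Without FMC 1 and FMC 3 together, 193 members lay below and 142 above.

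The members with the smallest p among the 135 stood between 5.34 and 257.7 FPKM in the FM libraries and between 0 and 4.81 FPKM in FMC. Olfr203, between 59302978 and 59303901 on chromosome 16, was at 14.3 and 51.7 FPKM (FM) against 0, 2.22, 0.762 and 0 FPKM (FMC). Its difference was -4.20 ± 0.89 (SE, log2; limma adjusted p = 0.372). Olfr571, between 110057383 and 110058351 on chromosome 7, was at 12.9 and 9.48 FPKM (FM) against 0.158, 0.574, 0.0734 and 0.854 FPKM (FMC). The difference of -3.13 ± 0.69 (SE, log2) did not pass (limma, adjusted p = 0.403). In neither did any FMC library come within 6-fold of an FM library.

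Olfr1388 was at 5.34 and 8.26 FPKM (FM) against 0, 0.0725, 0.149 and 0.588 FPKM (FMC) (log2 difference -2.70). Olfr177 was at 7.27 and 7.03 FPKM (FM) against 0.453, 0.479, 0.105 and 0.231 FPKM (FMC) (log2 difference -2.64). Both, like Olfr571, Olfr719-ps and Olfr874, reached 1 FPKM in the FM libraries alone. The same group held Olfr719-ps, Olfr874, Olfr1484 and Olfr282, with log2 differences of -6.35, -4.52, -5.25 and -4.22 and adjusted p of 0.143, 0.188, 0.224 and 0.312 (limma). Olfr719-ps is a pseudogene row of 243 bp that overlaps Hfm1, a gene of meiosis, and was listed at 0 in all FMC libraries. Olfr1484 was at 61.3 and 54.7 FPKM (FM) against 0, 0, 0 and 4.81 FPKM (FMC), and Olfr282 at 24.4 and 46.3 FPKM (FM) against 1.15, 0.296, 0 and 3.24 FPKM (FMC). Olfr874 stood at 27.5 and 35.8 FPKM in FM and under 1 FPKM in each FMC library. Its nearest copy Olfr875 (95.6% identity, 41 of 933 bases differing) did not share that order, at 6.83 and 0.651 FPKM (FM) against 0, 0.952, 1.54 and 25.5 FPKM (FMC).

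In the other direction Olfr135 was at 0.195 and 2.23 FPKM (FM) against 13.0, 60.4, 6.76 and 95.8 FPKM (FMC). Olfr135 lies in the cluster on chromosome 17, from 38345114 to 38346192. Its groups did not overlap, and FMC 2 and FMC 4 were the highest. The difference of 3.85 ± 1.06 (SE, log2) had the smallest p among the members of this direction and did not pass (limma, adjusted p = 0.596). Olfr57 was at 0.863 and 0.0338 FPKM (FM) against 57.2, 10.2, 11.6 and 3.27 FPKM (FMC) (log2 difference 3.30). Its FMC mean of 20.6 ± 24.7 FPKM (SD, n = 4) rests mainly on FMC 1.

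Olfr584 (log2 difference 2.55), Olfr304 (2.40), Olfr294, Olfr47, Olfr463 (2.29) and Olfr1209 completed this group. Olfr304 was at 0.331 and 0.591 FPKM (FM) against 5.12, 14.5, 6.96 and 3.60 FPKM (FMC). Olfr294 was at 1.29 and 0 FPKM (FM), with FMC values from 4.21 to 6.501 FPKM, the tightest FMC range of the 8. Olfr47 was at 1.15 and 0 FPKM (FM) and ran from 1.52 to 55.2 FPKM (FMC). Olfr57, Olfr304 and Olfr463 were under 1 FPKM in both FM libraries. They met the rule through FMC libraries alone, so they had to differ in this direction. None of the 8 passed the test, with adjusted p from 0.596 upward.

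**Figure D5:**
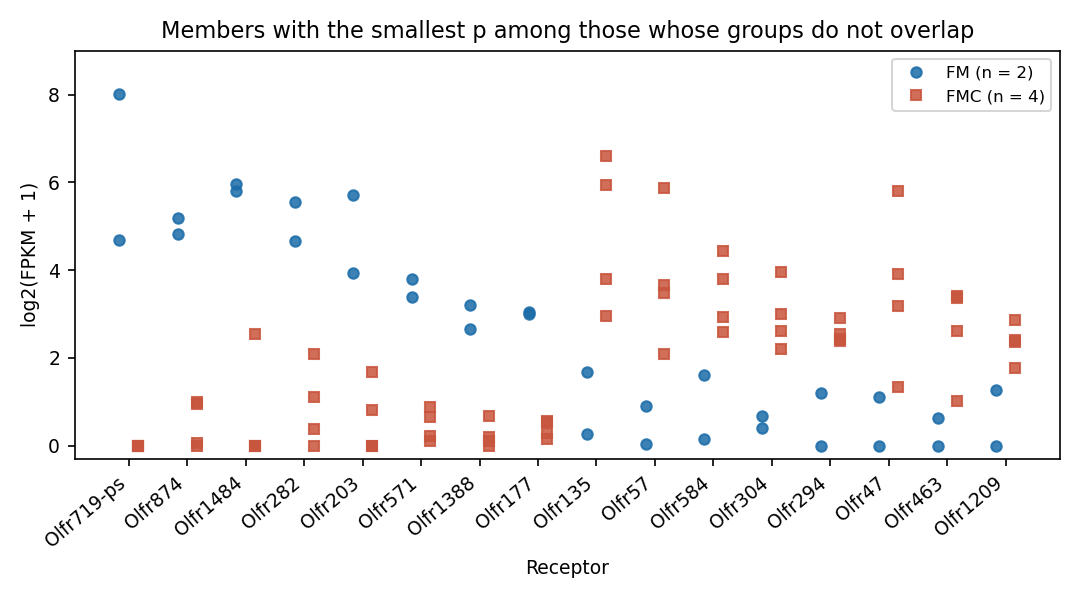
Level as log2(FPKM + 1) (vertical axis) in each FM (circles, n = 2) and FMC (squares, n = 4) library of the 16 members with the smallest p among those whose groups do not overlap, 8 lower and 8 higher in FMC. They were chosen for that separation, and none passed the adjusted test.

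The signalling partners that olfactory neurons use ranged widely in level. Of 27 symbols in the list 26 had values, 15 entered the fit, and 9 were at 1 FPKM or more in all 6 libraries. Over all rows that are no olfactory receptors, 48.1% entered the fit and 23.9% were at 1 FPKM or more in all 6. Limma called 0 of the list in either direction. The 5 highest are widely expressed: Gnb1, a G protein beta subunit, stood at 71.1 to 205.3 FPKM, and Arrb2, an arrestin that desensitizes receptors, at 42.7 to 164.0 FPKM. Ldb1, a cofactor of Lhx2, stood at 25.5 to 51.7 FPKM, Kdm1a, a histone demethylase, at 12.7 to 90.2 FPKM, and Ric8b, a chaperone of the olfactory G protein, at 7.08 to 25.5 FPKM. The olfactory G protein subunit itself, Gnal, did not exceed 0.640 FPKM, and the receptor transport gene Rtp1 did not exceed 0.706 FPKM. Cnga2, the channel subunit, reached 1 FPKM in FMC 2 alone, at 4.12 FPKM. Adcy3 was at 22.9 and 8.59 FPKM (FM) against 2.28, 3.37, 7.22 and 3.501 FPKM (FMC), and so reached 1 FPKM in every library, unlike Gnal, Rtp1 and Cnga2.

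All 10 microglial markers stood at 1 FPKM or more in all 6 libraries, among them Csf1r, the receptor of a macrophage growth factor, at 586.6 to 962.6 FPKM. Of 11 olfactory sensory neuron markers 3 entered the fit, and their sum was 6.15 to 26.3 FPKM, of which Adcy3 gave most in FM 1. Omp, the olfactory marker protein, was listed at 0 in 4 libraries and did not exceed 0.124 FPKM. Stoml3 ran from 0 to 4.87 FPKM. Of 6 neuronal markers only 4 had values, and these summed to 0.890 to 4.50 FPKM (Rbfox3 up to 2.36, Snap25 up to 1.57). Oligodendrocyte markers summed to 7.87 to 23.9 FPKM (Mbp up to 17.9, Mag up to 11.2). Astrocyte markers summed to 111.2 to 144.1 FPKM, nearly all of it Slc1a3, with Gja1 up to 9.77. Sperm and testis markers, a tissue where receptor transcripts are known, summed to 1.12 to 13.4 FPKM (Prm2 up to 12.2, Odf1 up to 8.87).

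Markers of erythroid cells had higher values in FM, and none passed the test. All 5 had values in every library and none was listed at 0. They summed to 155.5 and 128.1 FPKM in FM and to 31.8, 23.6, 9.09 and 23.3 FPKM in FMC, with Hbb-b1 at 60.7 and 50.2 FPKM against 3.86 to 9.03 FPKM and Hba-a1 at 37.7 and 23.4 FPKM against 1.16 to 7.57 FPKM. Limma called 0 of the 5 in either direction. Their part in the receptor levels was not tested.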

How the data were processed

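Microglia were sorted from optic nerve and their RNA amplified with the Ovation RNA-Seq method and sequenced, per the labels' protocols. The deposited table holds FPKM values computed by the authors per Ensembl gene, in 6 libraries (2 FM, 4 FMC), matched to samples by column name. CASAVA 1.8.2, TopHat2 2.0.4, Bowtie2 2.0.0, Cufflinks 2.0.2 and the build mm9 are named in the submitters' processing notes. Strand setting and treatment of fragments with several matches are not given in the sources used here. No counts were used, so the depth behind a value is unknown beyond the steps of low values.

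Values were tested as log2(FPKM + 1) with limma 3.58.1 (R 4.3.3), an intensity trend and no covariate, two-sided, over 18208 genes at 1 FPKM or more in at least 2 libraries, adjusted after Benjamini and Hochberg, threshold 0.05. A fold on this scale understates changes of low genes. The script was tested on simulated data. Rows without a value in some library (426 of the table, 2 of the receptor rows) were left out. Positions are those of the table in mm9 with starts converted to count from 1: read that way, the spans of 72.0% of 949 receptor rows that span under 1200 bp, pseudogenes left out, are multiples of 3, and otherwise 13.3%. Coding sequences of 1131 receptor rows came from GENCODE M21, 889 matched by identifier and 242 by symbol. Nearest copies were found with BLAST over at least 90% of the receptor's own sequence. Protein sequences were not used here.

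The members, gene lists and tests were chosen with earlier results of these data known. Named receptors are 10 with described roles outside the nose, the 8 highest by mean, up to 8 per direction with the smallest p whose groups do not overlap, up to 10 in all 6 libraries by mean, and 3 on each side of the rule. From the signalling list the 5 highest are named, and from each marker list (microglia, olfactory sensory neurons, neurons, oligodendrocytes, astrocytes, erythroid cells, sperm and testis) the 2 highest. The values of 1 microglial marker are not reported here. Others named were chosen after their values were seen. The replicate numbers 1 and 2 occur in both groups, and no label states that they pair the libraries. Alternatives were another pseudocount, filters, scalings, no trend, sex, blocks by number or dates, other levels and omission of libraries.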

Additional observations from a re-analysis of the deposited data

Results flagged for a closer look

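Each value here is the highest or lowest of the 4 FMC libraries. Its gap to the nearest FMC library, as a share of their whole range, is above Dixon's 95% critical value. If values are normally distributed, chance passes that value in about 1 of 20 such groups. Of 46 groups looked at, 13 passed it, where about 2.3 would by chance if that held. Raw FPKM was used, which need not be normally distributed, and the named receptors were partly chosen for high values. FMC 1 stood apart for Olfr57 (57.2 FPKM), Olfr850 (5.45 FPKM) and Olfr596 (27.7 FPKM). FMC 2 stood apart for Olfr263 (117.5 FPKM), Olfr299 (106.6 FPKM) and Olfr497 (112.8 FPKM). FMC 3 was the highest for Olfr1393 (42.5 FPKM) and Olfr920 (13.6 FPKM) and the lowest for Olfr1020 (11.98 FPKM). FMC 4 stood apart for Olfr427 (59.0 FPKM), Olfr1484 (4.81 FPKM), Olfr1264 (4.95 FPKM) and Olfr513 (47.0 FPKM). Each of the 4 libraries was thus the distant one for at least 3 receptors, and in 12 of the 13 it was the highest.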

How the results depend on the processing

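With 2 FM libraries, 1 library decides much of a difference, and FPKM gives no count behind a value. The number of members called was 0 in each direction under every alternative run. The members' median difference ranged from -1.15 (pseudocount 0.1) to -0.19 (FMC 1 and FMC 3 left out together), and when 1 library was left out from -0.85 to -0.44. The replicate block gave -0.49 and a block by adjacent dates -0.54. The replicate numbers share no stated source. Deviations of same-numbered libraries correlated at 0.03 and -0.06. With 2 FM libraries the deviations of FM 1 and FM 2 mirror each other, so this check cannot tell whether the numbers pair libraries.

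With 1 library left out, 27 to 91 members lay above and 153 to 323 below both FM libraries. With a member level of 5 FPKM the counts were 9 and 70, and without FMC 1 and FMC 3 together 142 lay above. The share over all genes was not taken under these settings, so these counts have no background. The member count was 531 at a level of 5 FPKM and 308 at 10 FPKM. Receptor rows at 5 FPKM numbered 380, 442, 204, 424, 159 and 306 in FM 1, FM 2 and FMC 1 to FMC 4, and at 10 FPKM 212, 295, 130, 243, 74 and 182. At 0.1 FPKM FMC 1 had 702 and FMC 3 had 767.

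Of 35 named members 25 kept the sign of their log2 difference throughout, and 10 did not, none of them called. The cause was not tested. In the replicate block the reversed values were 0.24 for Olfr2, -1.28 for Olfr1393, 1.11 for Olfr495 and 1.03 for Olfr108, and in the dates block 0.82 for Olfr920 and -0.49 for Olfr1369-ps1. With 1 library left out, Olfr2 ran from -2.12 to 1.18, Olfr111 from -0.95 to 0.077, Olfr1393 from -2.33 to 2.47, Olfr920 from -1.85 to 1.43, Olfr337-ps1 from -0.0037 to 1.23, Olfr495 from -0.83 to 0.78, Olfr108 from -1.0045 to 0.46 and Olfr784 from -2.03 to 0.27. Without FMC 1 and FMC 3 together Olfr2 was at 0.055, Olfr1393 at -0.10, Olfr495 at 0.055, Olfr801 at 0.10 and Olfr784 at 1.15. Olfr920 was at 0.13 with a pseudocount of 0.1 and 0.027 with quantile normalization, and Olfr495 at 0.084 with median ratio scaling.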
